A study of Rattus norvegicus with 69 samples.

Results

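Shbg, Clu and Ptgds encode proteins that Sertoli cells release: androgen-binding protein, clusterin and the lipocalin-type prostaglandin D synthase. Their probe sets were taken by gene symbol from the platform's annotation, which gave 4 probe sets for these 3 genes, of 14217 genes and 31042 probe sets used in all. Shbg is read by probe set 1368285_at, Ptgds by 1367851_at and Clu by 1367784_a_at and 1388246_at. Values for Clu are those of 1367784_a_at, the brighter of its pair, unless 1388246_at is named.

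Rat arrays from Affymetrix were hybridised with RNA of 69 samples from Sprague Dawley rats. Of these, 49 were seminiferous tubules dissected by their light transmission into 10 stage groups of the epithelial cycle, with 5 samples per group except IV-V, which had 4 (no replicate 1 was listed). Each tubule sample joined tubules of 2 rats aged 55 to 60 days, 25 segments from each. Sertoli cells (4 samples, about 85% pure), round spermatids (4) and pachytene spermatocytes (4) came from rats of that age too, while spermatogonia plus early spermatocytes (3) came from rats aged 18 to 20 days. The germ cells were 85% to 95% pure per the labels, which mention no transgene and no treatment of the animals. The 5 samples of whole testis had no age in the sources used here. The group called IX-XI carries that name in titles and protocol, but IX-XII in its source names. The labels call the tubule samples independent; for the isolated cells and whole testis they do not say whether samples came from separate animals, and p-values there measure the spread between these samples.

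The seminiferous epithelium passes through a repeating order of stages, each with a fixed set of germ cells around the Sertoli cell. Androgen-binding protein, the product of Shbg in the testis, binds testosterone and dihydrotestosterone in tubule fluid and is controlled by follicle-stimulating hormone and androgen. Clusterin is an abundant extracellular chaperone that binds lipids and the surfaces of spermatozoa. The product of Ptgds turns prostaglandin H into prostaglandin D, and as a lipocalin it also carries small lipophilic molecules such as retinoids and thyroid hormone.

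For Shbg and Ptgds, the 250 bases before the gene's annotated start are shown, from RefSeq on the rat assembly GRCr8. The Shbg sequence lies at chr10:54834902-54835151 and the Ptgds sequence at chr3:28682979-28683228, both on the minus strand, just upstream of the gene's start in that annotation. Shbg has 9 RefSeq transcripts, whose starts need not all follow this sequence. Each is read 5′ to 3′ towards the gene, and capitals mark the motifs found.
Shbg: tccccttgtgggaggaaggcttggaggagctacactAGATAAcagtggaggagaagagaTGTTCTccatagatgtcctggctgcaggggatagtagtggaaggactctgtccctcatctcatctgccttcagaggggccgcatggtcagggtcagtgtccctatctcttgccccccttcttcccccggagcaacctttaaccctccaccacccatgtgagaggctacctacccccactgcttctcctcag
Ptgds: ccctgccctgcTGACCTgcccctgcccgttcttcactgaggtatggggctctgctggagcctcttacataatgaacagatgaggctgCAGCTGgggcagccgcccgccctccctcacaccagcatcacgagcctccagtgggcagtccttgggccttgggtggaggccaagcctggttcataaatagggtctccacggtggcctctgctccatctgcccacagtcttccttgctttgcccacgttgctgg
The motifs searched on both strands were TGTTCT, bound by the androgen receptor, AACAAT, bound by SOX factors, AGGTCA, bound by nuclear receptors, AGATAA, bound by factors of the GATA family, TATAAA, the core promoter box, and CAGCTG, an E box. Before Shbg, AGATAA began 214 and TGTTCT 191 bases from the start. Before Ptgds, AGGTCA stood on the opposite strand, written TGACCT, 239 bases from the start, and CAGCTG 163 bases from it. No match overlapped another. Among 33469 rat promoters of this length, 10.3% held AGATAA, 17.5% TGTTCT, 14.1% AGGTCA and 12% CAGCTG, so each of these motifs stands before many genes. GC content was 56.4% before Shbg and 62.0% before Ptgds, against a median of 51.2%. Of the 3 genes, Shbg and Ptgds matched an entry of the promoter table and Clu did not.

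All values are array signals on a linear scale, each array scaled to the same trimmed mean. No detection calls came with them, so a low signal is not shown to lie above background. Each group's values are given as mean ± SD with n as above. Median signals per array ran from 30.9 to 58.2 and were lowest in Sertoli cells. The ratio of the 3′ to the 5′ control probe sets of GAPDH, a measure of RNA integrity, ran from 0.897 to 2.44 and was highest in round spermatids, and also high in replicates 2 and 3 of VIIc.d. The same ratio for beta-actin ran from 1.26 to 3.64. It was highest in replicate 3 of spermatogonia plus early spermatocytes, the array that also had the highest median signal. Summed over the 8 measured Sertoli cell markers, the signal was 1962 to 2822 in tubules, 7170 to 10327 in isolated Sertoli cells, 371 to 440 in round spermatids, 406 to 513 in pachytene spermatocytes and 1970 to 2617 in spermatogonia plus early spermatocytes. They were thus highest in the cells labelled Sertoli cells, and included Wt1, Gata4 and Cldn11. The 6 round spermatid markers summed to 15319 to 17343 in round spermatids and 5684 to 8117 in pachytene spermatocytes, while the 6 pachytene markers reached 10603 to 11525 and 9160 to 14183 in these cells. The 4 measured spermatogonia markers summed to 756 to 1124 in spermatogonia plus early spermatocytes and to 1412 to 1780 in Sertoli cells, so that they did not set this group apart. In tubules and whole testis, a lower signal from fewer Sertoli cells and one from less RNA per cell cannot be told apart.

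**Figure D1:**
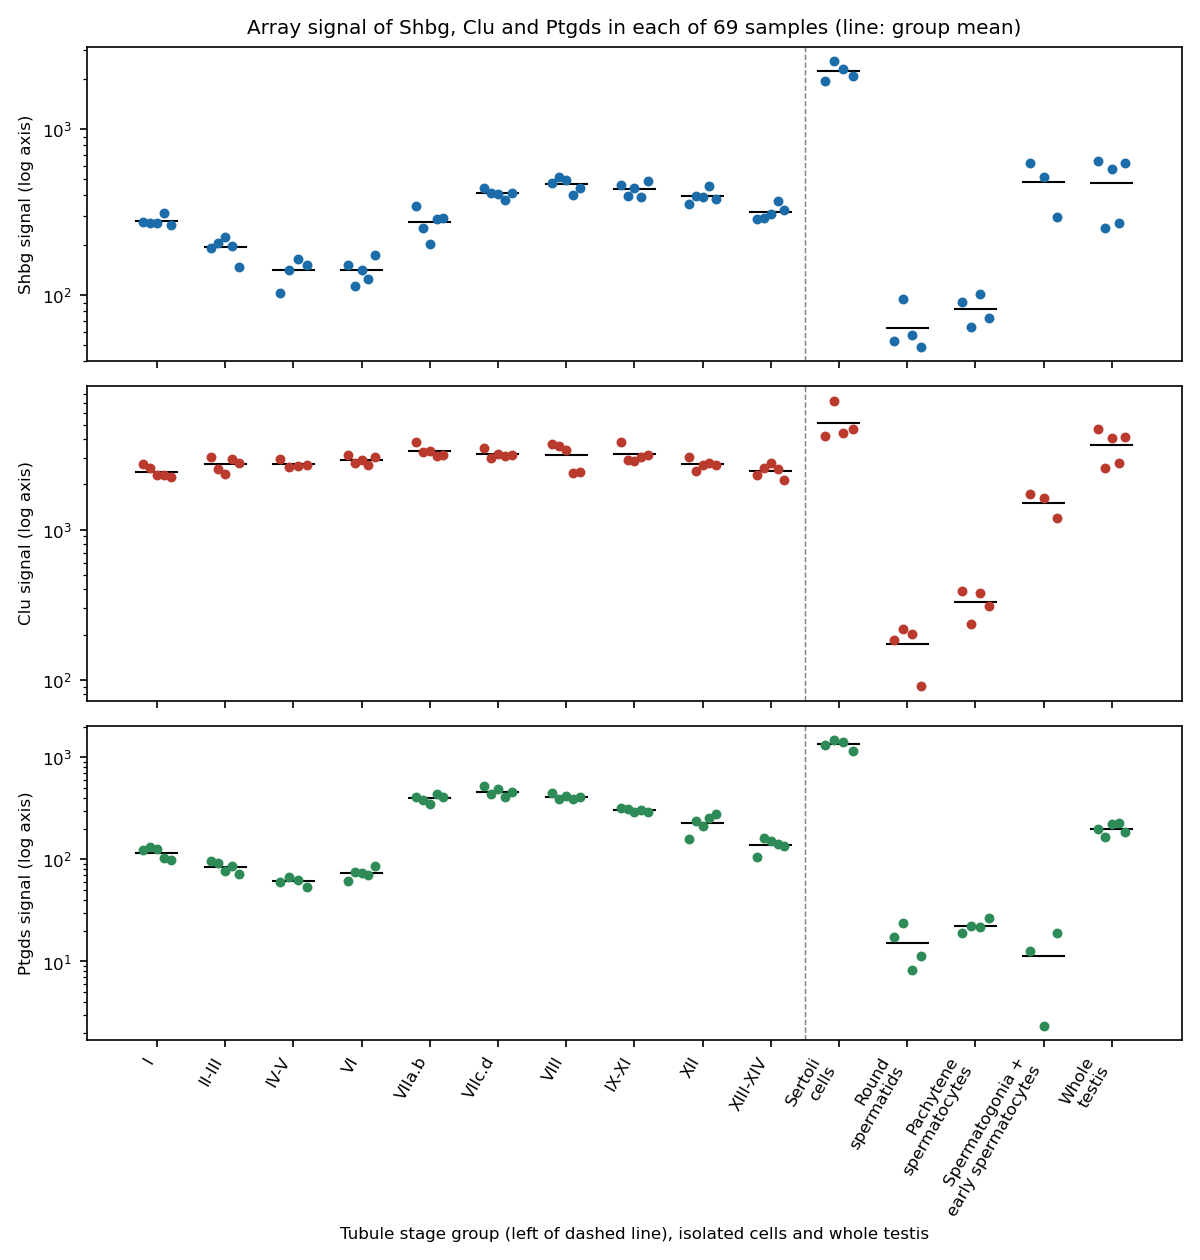
Array signal (log axis) of Shbg, Clu and Ptgds in each of the 69 samples, by tubule stage group to the left of the dashed line and by isolated cell type and whole testis to its right; points are samples and lines group means. Shbg and Ptgds are low at IV-V and VI. Among the stage groups, the means of Shbg are highest from VIIc.d to IX-XI and those of Ptgds from VIIa.b to VIII. Clu stays between 2145 and 3840 in all tubule samples, and each gene's mean is highest in Sertoli cells.

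Shbg, the androgen carrier, was lowest at IV-V and VI and highest at VIII. Its signal at IV-V was 104, 141, 165 and 152 in the 4 samples, and at VI 152, 114, 141, 125 and 174. At VIIa.b it was 345, 252, 202, 288 and 292, and at VIIc.d 443, 412, 409, 376 and 412. Every VIIa.b sample thus exceeded every VI sample, and every VIIc.d sample exceeded every VIIa.b sample. The highest values came at VIII, with 477, 516, 497, 400 and 444. From there the mean went from 467 ± 46.0 at VIII to 436 ± 42.2 at IX-XI, 396 ± 36.7 at XII, 317 ± 32.8 at XIII-XIV and 279 ± 18.4 at I, with overlapping samples at each of these steps. The lower end was reached through II-III, where the 5 samples lay between 148 and 225.

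Differences were tested as log2 of the signal plus 5.11 with limma, with Benjamini-Hochberg adjustment over all probe sets tested, and called at an adjusted p under 0.05. Standard errors (SE) are those of the fit. Over the cycle Shbg spanned 3.27-fold from IV-V to VIII (F-test of limma, adjusted p = 3.82e-21). Of the 22258 probe sets tested, 54.3% passed this F-test, and 32.5% passed it with a span of 2-fold or more. Among single steps along the cycle, Shbg rose 1.91-fold from VI to VIIa.b (log2 difference 0.93, SE 0.12, adjusted p = 2.76e-08 by limma), a step at which 5.24% of probe sets rose. It rose another 1.5-fold from VIIa.b to VIIc.d (adjusted p = 4.62e-04, limma), where 3.07% did. It fell by 0.53 on the log2 scale from I to II-III (adjusted p = 5.92e-04, limma), as 7.35% of probe sets fell. From II-III to IV-V it fell by 0.45 (adjusted p = 0.00907, limma), where 4.93% fell, but without IV-V replicate 2, the lowest sample of that group, the difference was -0.32 with an adjusted p of 0.126 in the limma fit. The other 6 steps missed the threshold for Shbg.

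Clu, the secreted chaperone, moved little over the cycle. Its signal at I, the lowest stage, was 2719, 2582, 2310, 2302 and 2237, and at VIIa.b, the highest, 3834, 3277, 3358, 3071 and 3128. These samples did not overlap, and the group means were 2430 ± 209 and 3334 ± 302. At VIII the samples were split, with 3739, 3591 and 3407 in replicates 1 to 3 and 2395 and 2434 in replicates 4 and 5, so that this group covered nearly the whole range of the tubules. The same replicates 4 and 5 stood apart in other measures. Their summed round spermatid markers were 14102 and 14089, against 23481 to 27457 in replicates 1 to 3, and their pachytene spermatocyte markers 9524 and 9134, against 13363 to 14285. Their GAPDH 3′/5′ signal ratios were 1.62 and 1.53, against 1.01 to 1.32. Shbg was also lowest at VIII in these replicates (400 and 444, against 477 to 516). The part of these differences in the split was not tested. At VI the samples ran from 2700 to 3126 and at XIII-XIV from 2145 to 2784.

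The span of Clu was 1.37-fold between I and VIIa.b and passed the F-test (adjusted p = 2.25e-04 by limma). On the log2 scale this span of 0.45 was smaller than the median span of all tested probe sets, 0.89. None of the 10 steps between adjacent stages passed for Clu in the limma fit. The smallest adjusted p of any step was 0.190, for IX-XI to XII, and the step VI to VIIa.b gave 0.19 on the log2 scale with an adjusted p of 0.283. After quantile normalization of the arrays, the steps I to II-III and VI to VIIa.b each gave 0.23 and passed, with limma's adjusted p of 0.0197 and 0.0284.

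The other Clu probe set, 1388246_at, gave signals of 8.73 to 84.8 in tubules, a range around the table's median of 43.7. At VIIa.b it was 44.5, 70.8, 59.6, 68.2 and 59.0, and at VIIc.d 19.4, 46.9, 8.73, 13.4 and 20.5. The step between them was a fall by 1.42 on the log2 scale (adjusted p = 0.00821, limma), where 3.76% of probe sets fell. Its F-test over the stages passed with an adjusted p of 0.0192 in the limma fit, and no longer passed without VIIc.d replicate 3, at 0.0588. The probe sets of Clu thus differed in their course from VIIa.b to VIIc.d.

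Ptgds, the prostaglandin D synthase, had the widest range of the 3 genes over the cycle. Its signal was 60, 67, 62 and 53 in the samples of IV-V, and 61, 75, 73, 70 and 86 in those of VI. At VIIa.b it was 411, 381, 345, 437 and 410, so that the lowest VIIa.b sample was well above the highest VI sample. VIIc.d gave 521, 434, 491, 404 and 452, and VIII gave 451, 392, 414, 389 and 404. These 3 stage groups overlapped with each other. Its level then went down in order, with 319, 310, 292, 305 and 290 at IX-XI, below every sample of VIII. XII had 159, 239, 212, 252 and 276, below every sample of IX-XI, and XIII-XIV had 104, 163, 153, 141 and 136. At I the signal was 98.5 to 133, and at II-III 71.9 to 96.5.

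Ptgds spanned 7.06-fold from IV-V to VIIc.d (F-test of limma, adjusted p = 1.06e-30). From VI to VIIa.b it rose 5.15-fold (log2 difference 2.36, SE 0.11, adjusted p = 2.26e-21, limma), which ranked 29th from the top of the 22258 probe sets at that step. It fell at 5 steps. The falls on the log2 scale were by 0.43 from VIII to IX-XI (adjusted p = 0.00548, limma), by 0.43 from IX-XI to XII (0.00884) and by 0.68 from XII to XIII-XIV (3.24e-05). At these steps 7.62%, 5.05% and 3.87% of all probe sets fell. Falls of 0.43 from I to II-III (adjusted p = 0.00449, limma) and of 0.45 from II-III to IV-V (0.00921) followed. Without XII replicate 1, the lowest of its group, the fall from IX-XI to XII was by 0.31 with an adjusted p of 0.0691, and without IV-V replicate 5 the fall from II-III to IV-V was by 0.39 with 0.0544, both by limma.

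**Figure D2:**
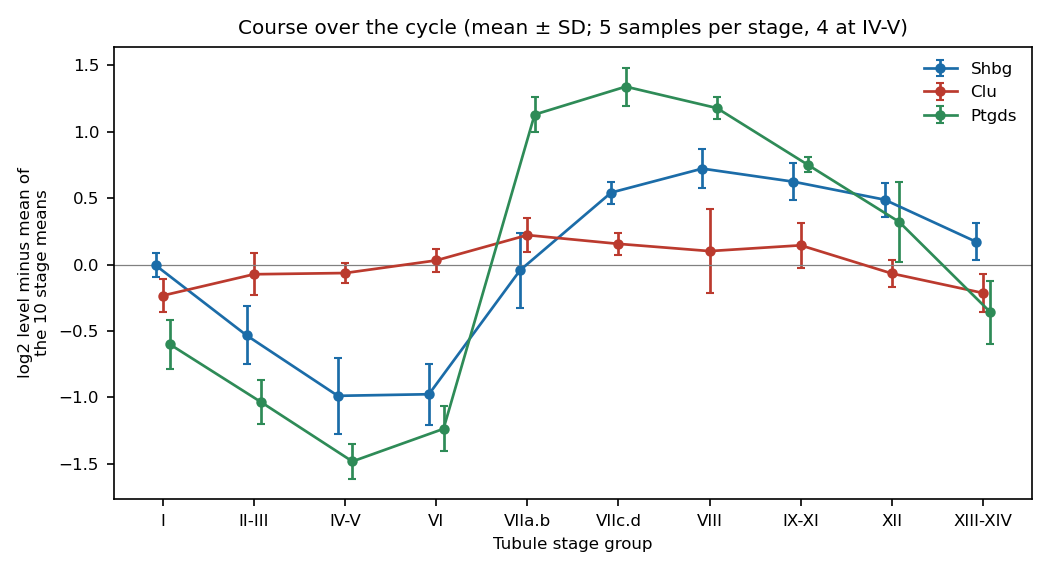
Course of Shbg, Clu and Ptgds over the 10 stage groups, as the log2 level (signal plus 5.11) minus the mean of the gene's 10 stage means; points are means and bars SD over 5 samples, 4 at IV-V. The step from VI to VIIa.b is 2.36 for Ptgds, 0.93 for Shbg and 0.19 for Clu, and Ptgds declines from VIII while Shbg stays near its highest level to IX-XI.

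Whether the genes changed to the same extent was tested on the log2 ratio of 2 genes within each array. From VI to VIIa.b the ratio of Shbg to Ptgds changed by -1.43, that of Clu to Ptgds by -2.17 and that of Shbg to Clu by 0.74. Each had p = 0.00794 in an exact two-sided permutation test, the smallest that 5 against 5 samples allow, and an adjusted p of 0.0191 over 12 such tests, which were chosen after the values had been seen. Across the 10 stage means, which share their libraries, the correlation was 0.86 for Shbg with Ptgds, 0.67 for Clu with Ptgds and 0.27 for Shbg with Clu. The Sertoli markers Cldn11, Wt1 and Gata4 spanned 1.40-fold, 1.71-fold and 1.35-fold over the cycle by the same fit, and the summed Sertoli markers stayed between 1962 and 2822. Single markers were not all steady. Of the 8 measured, 5 passed the stage F-test, beside 54.3% of all probe sets, and 1, Inha, spanned 2-fold or more. The median span of the 8 was 0.80 on the log2 scale, against 0.89 for all probe sets. Their part in the stage differences was not tested.

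Stages VII and VIII are known for their dependence on androgen, and stages XIII to I for a strong response to follicle-stimulating hormone. The mean of VIIa.b, VIIc.d and VIII was compared with that of XIII-XIV and I for this reason. Ptgds lay between 345 and 521 in the 15 samples of VII and VIII, with a median of 411, and between 98.5 and 163 in the 10 others, with a median of 129. These groups did not overlap, and the difference was 3.24-fold (log2 1.69, SE 0.07, adjusted p = 2.11e-25 by limma). Clu ranged from 2395 to 3834 (median 3162) against 2145 to 2784 (median 2417), which overlapped, and was 1.3-fold higher (log2 0.38, SE 0.06, adjusted p = 1.08e-06, limma). Shbg ranged from 202 to 516 (median 409) against 264 to 370 (median 292), with overlap, and was 1.25-fold higher (log2 0.32, SE 0.07, adjusted p = 2.88e-04, limma). The course of Shbg did not follow this split of stages. Its mean at VIIa.b (276) was not above those of XIII-XIV (317) and I (279), unlike VIIc.d (410) and VIII (467). Outside both sets it was also high, at IX-XI (436) and XII (396). In this comparison 24.9% of probe sets were higher. Clu 1388246_at gave 0.03 with an adjusted p of 0.942 in the limma fit.

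The ratio of Shbg to Ptgds differed between these sets of stages by -1.37 and that of Clu to Ptgds by -1.31, each with an adjusted p of 3e-05 (two-sided permutation test over samples, with p at the smallest that 100000 resamples can give). The ratio of Shbg to Clu differed by -0.06 (permutation p = 0.693).

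Sertoli cells had the highest mean signal of all groups for each of the 3 genes. Shbg was 1947, 2576, 2314 and 2105 there, against 53, 94, 57 and 49 in round spermatids and 91, 64, 101 and 73 in pachytene spermatocytes. Clu was 4178, 7213, 4373 and 4687 in Sertoli cells, against 183, 218, 202 and 90.5 in round spermatids and 392, 237, 377 and 308 in pachytene spermatocytes. Ptgds was 1317, 1472, 1416 and 1144, against 17, 24, 8.22 and 11 and 19, 22, 22 and 27. No Sertoli cell sample overlapped with a germ cell sample for any of the 3 genes.

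Against the mean of the 3 germ cell groups, Ptgds was 67.2-fold higher in Sertoli cells (log2 6.07, SE 0.24, adjusted p = 2.93e-13 by limma), the third largest difference of 20253 probe sets. Whether the low germ cell signals of Ptgds exceed the arrays' background is not known here, and the log2 difference ran from 5.42 to 6.47 over the alternative settings. The difference was 16.1-fold for Shbg (log2 4.01, SE 0.18, adjusted p = 8.56e-13) and 11.4-fold for Clu (log2 3.51, SE 0.20, adjusted p = 1.81e-11), both by limma. In this fit 37.8% of probe sets were higher in Sertoli cells. The probe set Clu 1388246_at was 3.33-fold higher (adjusted p = 5.11e-04, limma). Against round spermatids alone Shbg was 33.6-fold and Clu 29.4-fold higher, and against pachytene spermatocytes 25.8-fold and 15.2-fold; 43% and 37.9% of probe sets were higher in these comparisons.

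Spermatogonia plus early spermatocytes differed from the later germ cells in Shbg and Clu. Shbg was 628, 513 and 298 in their 3 samples and Clu 1715, 1633 and 1186, all above every sample of the later germ cells. Shbg was 6.13-fold higher than in the mean of round spermatids and pachytene spermatocytes (log2 2.62, SE 0.21, adjusted p = 1.30e-09, limma), and Clu 6.35-fold (log2 2.67, SE 0.23, adjusted p = 4.39e-09, limma), where 43.4% of probe sets were higher. Sertoli cells exceeded this germ cell group by 4.81-fold for Shbg and 3.33-fold for Clu (adjusted p = 3.10e-07 and 1.76e-05 by limma), with 23.2% of probe sets higher. Replicate 3 of spermatogonia plus early spermatocytes, the lowest of the 3 for both genes and the highest for Ptgds, had the highest beta-actin 3′/5′ ratio of all arrays (3.64). The part of RNA integrity in these values was not tested.

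Ptgds took another course in these cells, with signals of 12.6, 2.35 and 19.2, and Sertoli cells exceeded them 90.6-fold (log2 6.50, SE 0.32, adjusted p = 6.46e-11, limma). Over the alternative settings this log2 difference ran from 5.67 to 7.25, and whether signals this low exceed the arrays' background is not known here. Against the later germ cells Ptgds differed by -0.65 on the log2 scale (SE 0.28, adjusted p = 0.0493, limma), where 28.6% of probe sets were lower. The samples overlapped, and without replicate 2, the lowest of the 3, the difference was -0.15 with an adjusted p of 0.600 in the limma fit, while without replicate 3 it was -1.0 with 0.00479. Of the 15 limma fits that each left out 1 sample, 10 missed the threshold. The ratio of Shbg to Ptgds changed by 3.26 from the later germ cells to these cells and that of Clu to Ptgds by 3.31 (exact permutation p = 0.0121 each, adjusted p = 0.0207 over the 12 tests named above). The ratio of Shbg to Clu changed by -0.05 (exact permutation p = 0.945).

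Marker levels also moved with these groups. The Sertoli cell markers summed to 1970 to 2617 in spermatogonia plus early spermatocytes, as in tubules, and to at most 513 in the later germ cells. The 7 Leydig cell markers summed to 6508 to 9982 in spermatogonia plus early spermatocytes and to 5730 to 7586 in Sertoli cells, against 227 to 436 in the later germ cells and 198 to 429 in tubules. The 6 macrophage markers summed to 997 to 1356 in spermatogonia plus early spermatocytes and 122 to 154 in Sertoli cells. The 5 myoid markers summed to 2185 to 5288 and the 5 measured endothelial markers to 578 to 1650 in Sertoli cells, against 340 to 695 and 52.1 to 223 in tubules. Of the myoid markers, Tagln was under 5.11 in every sample of the 3 germ cell groups and Cnn1 in every round spermatid sample. The part of these cells in the differences was not tested. Spermatogonia plus early spermatocytes also came from the younger rats, so that age and cell group cannot be told apart.

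**Figure D3:**
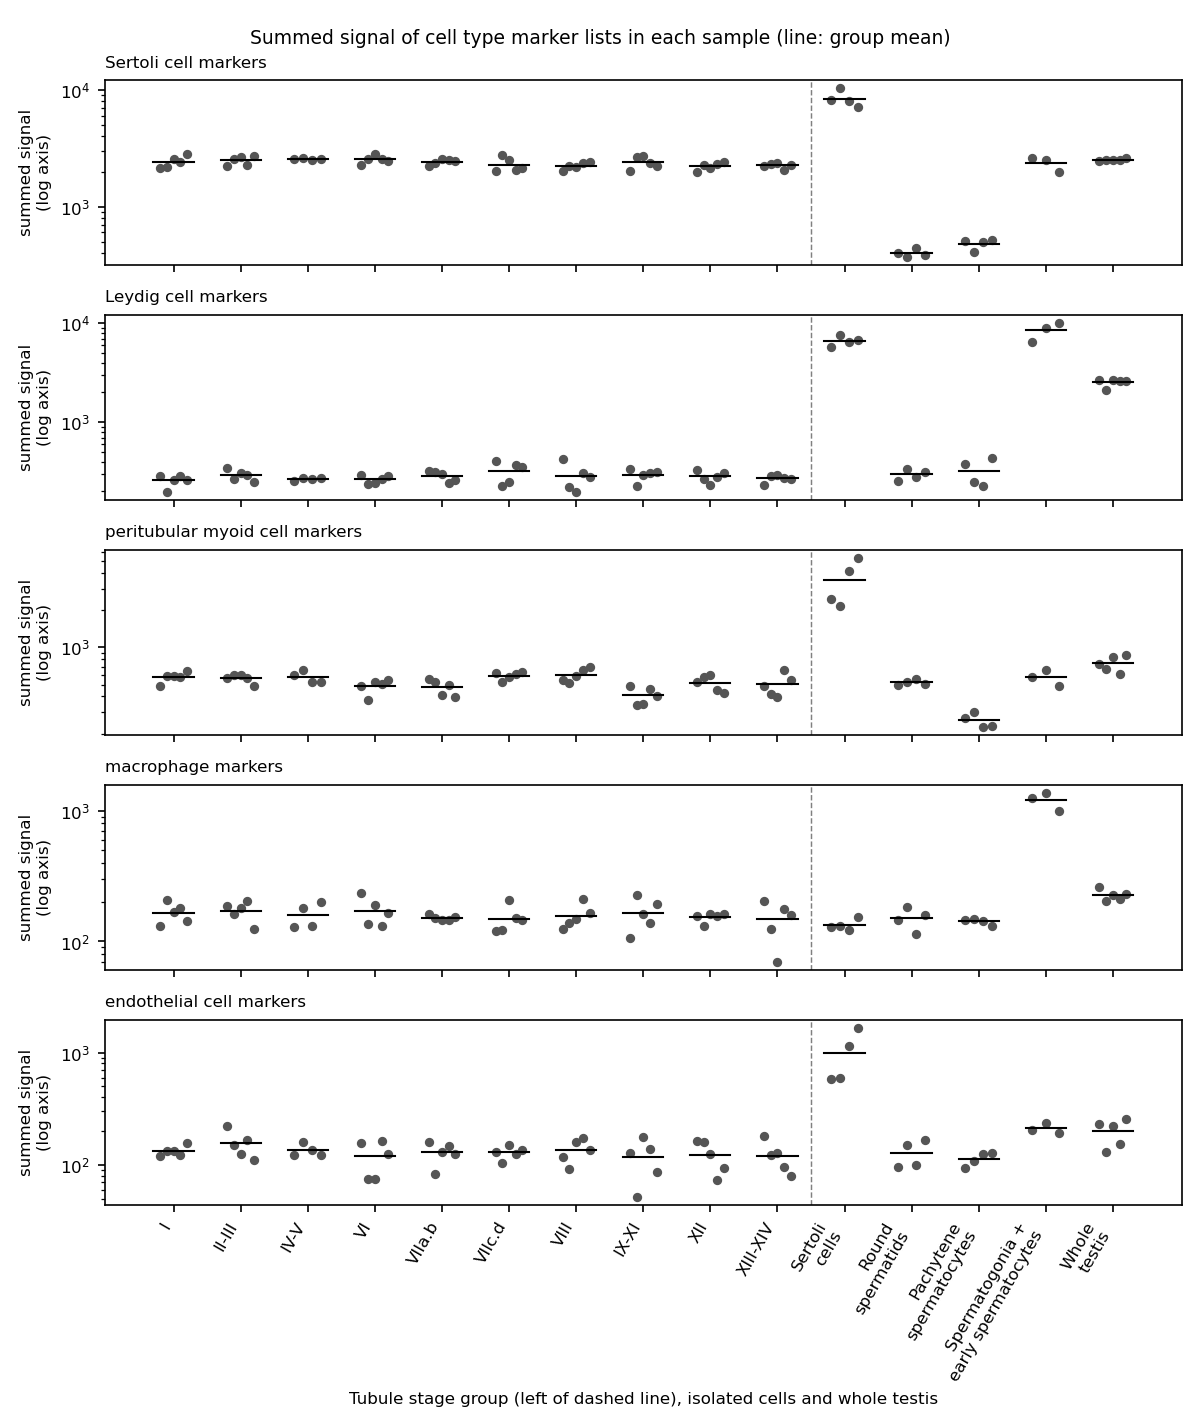
Summed signal (log axis) of the measured genes of 5 cell type marker lists in each sample, by tubule stage group to the left of the dashed line and by isolated cells and whole testis to its right; points are samples and lines group means. Sertoli cell markers stay within 1962 to 2822 in tubules, and Leydig cell markers reach 5730 to 7586 in Sertoli cells and 6508 to 9982 in spermatogonia plus early spermatocytes.

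Isolated Sertoli cells were also set against the tubules that contain them, as the mean of the 10 stage means. Shbg was 7.82-fold higher in the isolated cells (log2 2.97, SE 0.14, adjusted p = 2.01e-28 by limma) and Ptgds 7.29-fold (log2 2.87, SE 0.13, adjusted p = 3.34e-29, limma). Neither gene overlapped, since the highest tubule samples were 516 for Shbg and 521 for Ptgds. Clu was 1.75-fold higher (log2 0.81, SE 0.13, adjusted p = 4.01e-08, limma), its highest tubule sample being 3840 and its lowest Sertoli cell sample 4178. In this comparison 35.4% of probe sets were higher and the median of all probe sets was -0.32. Quantile normalization moved that median to -0.10 and the difference of Clu to 1.62, with an adjusted p of 2.70e-24 in the limma fit. Clu 1388246_at was 1.81-fold higher (adjusted p = 0.0102, limma), but without Sertoli cell replicate 2 its log2 difference was 0.43 with an adjusted p of 0.241. The ratio of Shbg to Clu differed by 2.14 between Sertoli cells and tubules and that of Clu to Ptgds by -2.03 (exact permutation tests, adjusted p = 4.1e-05 each), and that of Shbg to Ptgds by 0.11 (exact permutation, adjusted p = 0.836).

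In whole testis, which adds the tissue between tubules, Shbg was 647, 253, 580, 272 and 623. Clu was 4690, 2577, 4086, 2790 and 4165, and Ptgds 196, 166, 221, 225 and 187. Replicates 2 and 4 were the lowest for both Shbg and Clu, while replicate 4 was the highest for Ptgds. The same replicates had the lowest summed spermatogonia markers (322 and 329, against 610 to 648 in the others) and endothelial cell markers (130 and 154, against 224 to 254). Both were also lowest for summed Leydig cell markers, with 2121 in replicate 2 and 2596 in replicate 4, against 2612 to 2672 in the others. The same held for myoid markers (672 and 604, against 738 to 873) and macrophage markers (203 and 212, against 226 to 261). The summed Sertoli cell markers did not divide the replicates that way, with 2526 in replicate 2 and 2503 in replicate 4, against 2447, 2510 and 2632 in the others. The part of these differences was not tested. Shbg was 1.55-fold higher than in tubules (log2 0.64, SE 0.13, adjusted p = 1.07e-04 by limma), where 15.7% of probe sets were higher. Clu was 1.25-fold higher (log2 0.32, SE 0.11, adjusted p = 0.0233, limma), and missed the threshold without replicate 1 (log2 0.22, adjusted p = 0.179), replicate 3 (0.27, 0.101) or replicate 5 (0.27, 0.110) of whole testis. Ptgds gave 0.15 (SE 0.12, adjusted p = 0.369, limma). None of the 3 ratios between the genes passed an exact permutation test here (adjusted p = 0.404, 0.125 and 0.762). Summed Leydig cell markers were 2121 to 2672 in whole testis and at most 429 in tubules, and their part in these differences was not tested.

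**Figure D4:**
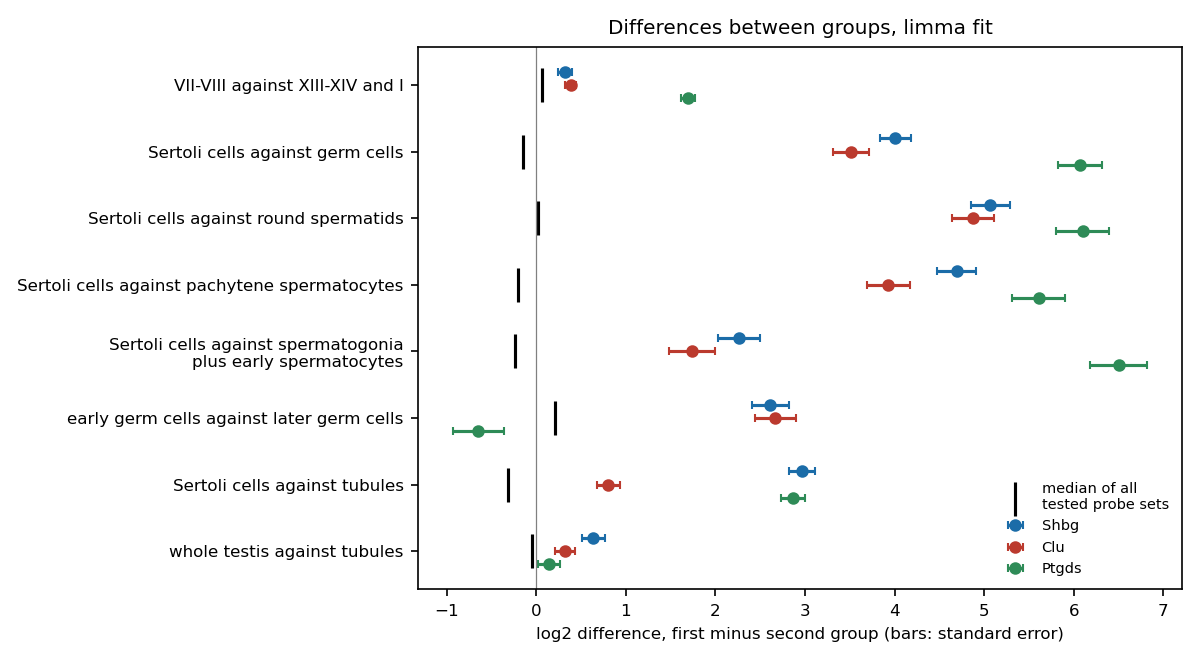
Log2 differences of Shbg, Clu and Ptgds between groups (first minus second group, signal plus 5.11), with bars for the standard error of the limma fit and a black mark for the median of all tested probe sets. Ptgds has the largest difference of the 3 in Sertoli cells against germ cells, 6.07, and in stages VII and VIII against XIII-XIV and I, 1.69; in early against later germ cells it is -0.65 while Shbg and Clu are at 2.62 and 2.67.

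Ordered by mean signal over all 15 groups, Shbg went from Sertoli cells (2236 ± 273) through spermatogonia plus early spermatocytes (480 ± 168), whole testis (475 ± 196) and the stage groups to pachytene (82.3 ± 16.9) and round spermatids (63.3 ± 20.9). Of its 14 pairs of neighbours in this order, 6 lay further apart than the larger of their SDs. The 5 pairs of neighbours from spermatogonia plus early spermatocytes down to XII were not among them. Clu went from Sertoli cells (5113 ± 1416) through whole testis (3662 ± 926) and the stages to spermatogonia plus early spermatocytes (1511 ± 284), pachytene (328 ± 71.3) and round spermatids (173 ± 57.1), with 5 of 14 gaps above the larger SD. For Ptgds the order was Sertoli cells (1337 ± 144), the stages with whole testis (199 ± 24.6) among them, pachytene (22.4 ± 3.17), round spermatids (15.2 ± 6.93) and spermatogonia plus early spermatocytes (11.4 ± 8.48), and 11 of 14 gaps exceeded the larger SD.

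The genes most like each of the 3 over the cycle were those whose 10 stage means correlated best with it, among the genes (4542 or 4543) that passed the F-test with at least 2-fold. For Shbg they were Aktip (r = 0.997), Nectin2, Cmc2, F11r and Asb8 (each 0.986 to 0.987). Nectin2 and F11r, the junctional adhesion molecule A, encode cell adhesion proteins of the Sertoli cell junctions, with spans of 4.86-fold and 3.69-fold. For Ptgds they were Pgap2 (0.979), Bckdha, Cd55, Slc25a37 and Sft2d2, and of these Cd55, which encodes a brake on complement, spanned 10.5-fold with its highest level at VIIc.d, while a second Cd55 probe set was highest at XII. For Clu they were Selenop (0.970), which encodes a selenium carrier in plasma, Aprt, Smarce1, C2h4orf3 and Rnps1. Over all 15 group means, Shbg was most like F11r (0.991), Clu most like Defb24 (0.974) and the tight junction gene Cldn11 (0.971), and Ptgds most like Sycn (0.932). These values are descriptions of the same arrays.

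Genes that act with Shbg in androgen and follicle-stimulating hormone action had 9 measured of 13. Of these, 5 passed the F-test over the stages, a share near the background of 54.3%. The subunits of inhibin, the hormone that restrains follicle-stimulating hormone, had their highest stages elsewhere than Shbg. Inhbb went from 11.1 ± 8.61 at VI to 72.4 ± 17.1 at I (5.20-fold, adjusted p = 1.77e-10 by limma). Inha was 111 ± 10.4 at VIIa.b, its lowest stage, and highest at II-III (2.39-fold, adjusted p = 5.28e-09, limma). Both were lower at VII and VIII than at XIII-XIV and I (log2 -1.07 and -0.66, adjusted p = 3.23e-05 and 2.69e-07, limma), as were 20.2% of all probe sets. Srd5a3, of the steroid reductases, was highest at VIIa.b (2.10-fold), Fbln1 at XII (2.48-fold) and Fbln2 at IX-XI (1.80-fold). Fbln1 and Fbln2 encode fibulins, matrix proteins that bind the steroid-binding globulin. In Sertoli cells against germ cells, 5 of the 9 were higher and 1 lower, beside 37.8% and 44.8% of all probe sets. The higher ones were Inhbb (15.8-fold), Inha (8.26-fold), Fbln1 (5.39-fold), Hsd17b3, which makes testosterone, and Srd5a3. The lower one was the endocytic receptor Lrp2 (log2 -1.26). A second Fbln1 probe set missed the stage F-test (adjusted p = 0.153, limma).

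Receptors and lipid partners of clusterin had 8 tested of 10 names, and 4 passed the stage F-test, beside a background of 54.3%. Vldlr, a receptor for lipoproteins, was 538 ± 38.4 at IV-V and 58.7 ± 2.01 at VIII, an 8.49-fold span (adjusted p = 7.17e-29, limma) that 2 of its 3 other probe sets shared in call and highest stage. Lrp8, a related receptor that binds clusterin, was highest at VIIa.b, as Clu was (1.64-fold, adjusted p = 2.46e-04, limma). Against germ cells, Sertoli cells had more Lrp8 (658 ± 115, 10.9-fold), Lrp1 (539 ± 69.3, 10.4-fold), Apoe (7.73-fold) and Scarb1 (6.07-fold), and less Vldlr (log2 -2.34), Pon1 (-1.96). In all, 4 were higher and 4 lower, beside 37.8% and 44.8% of all probe sets.

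Among 14 genes of prostaglandin synthesis and transport, 7 of 11 tested passed the stage F-test, beside a background of 54.3%. Ptges2, a prostaglandin E synthase, was 144 ± 35.0 at I and 513 ± 17.7 at VIIc.d (3.53-fold, adjusted p = 2.30e-20, limma), so that its highest stage was that of Ptgds. Ptges, another E synthase, was highest at VIII (2.37-fold, adjusted p = 0.00152, limma), which its second probe set did not show (adjusted p = 0.629). Ptgr1, which breaks down prostaglandins, was highest at IX-XI (6.92-fold), the thromboxane synthase gene Tbxas1 at VIIa.b, the co-chaperone gene Ptges3 at I and Abcc4, whose product exports prostaglandins, at VI. In Sertoli cells against germ cells 7 of 14 were higher and 4 lower, beside 37.8% and 44.8% of all probe sets. Ptgr1 (755 ± 54.3, 17.8-fold), Ptges (4.27-fold), Ptgis (4.15-fold) and Cbr1 (3.02-fold) were higher. Hpgds, the other prostaglandin D synthase, was 7.08 ± 3.55 in Sertoli cells, 36.5 ± 5.42 in round spermatids and 82.8 ± 9.59 in spermatogonia plus early spermatocytes (log2 -2.13 against germ cells, adjusted p = 1.19e-08, limma). Of 6 prostaglandin receptors tested, 0 passed the stage F-test of limma, and 0 had an unadjusted p under 0.05. In VII and VIII against XIII-XIV and I, 1 of the 6 was higher, beside 24.9% of all probe sets. The 4 receptors tested in the isolated cells were each lower in Sertoli than in germ cells, beside 44.8% of all probe sets.

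Other lipocalins and secreted carriers varied in their timing. Apod, a lipocalin like Ptgds, went from 60.3 ± 16 at I to 214 ± 22.7 at VIIa.b (3.43-fold, adjusted p = 3.44e-16, limma) and was 10.9-fold higher in Sertoli than in germ cells. Lcn2 was 71.8 ± 18.1 at VI and 335 ± 65.2 at VIII (4.46-fold, adjusted p = 2.03e-19, limma), with its lowest and highest stages next to or at those of Shbg. Of 5 lipocalins tested, these 2 passed the F-test (background 54.3%), and in Sertoli against germ cells they were higher while Orm1, C8g and Apom were lower. Of 12 other secreted transport and binding proteins tested over the stages, 6 passed, beside 54.3% of all probe sets. Psap, the precursor of saposins and like clusterin a major secreted glycoprotein of Sertoli cells, was highest at VI (1925 ± 125) and lowest on the log2 scale at XII (589 ± 152, 3.34-fold over the cycle, adjusted p = 4.88e-18, limma). In Sertoli against germ cells 8 of 13 were higher and 3 lower, beside 37.8% and 44.8% of all probe sets, with Psap (14.6-fold), Apod, Igfbp7 (9.47-fold), Apoe, Igfbp2 (5.81-fold) and Igfbp3 (4.17-fold) the largest. A second probe set of Igfbp3 missed the threshold there (log2 0.36, adjusted p = 0.0844, limma).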

How the data were processed

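RNA of 69 samples was measured on Affymetrix arrays. Per the labels, biotinylated cRNA was made from 6 µg of total RNA extracted with Trizol, and the submitters' processing notes name MAS5 with no version. The authors deposited linear signal intensity values, one for every probe set on every array. The mean of each array, trimmed by 2% of values at both ends, was 100.0, so the arrays had been scaled; the scaling target and detection calls are not given in the sources used here. The number of arrays per group, 3 to 5, limits the precision.

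Of 31099 probe sets, 57 controls were left out. Symbols came from the platform's annotation (20826 probe sets with 1 gene, 436 with several, 9780 not listed) and were updated for 20758 through the RefSeq table of GRCr8. Where a gene had more than 1 probe set, the brightest on average stood for it. The deposited intensity plus 5.11 (10th percentile of all values) was put on the log2 scale and analysed with limma 3.58.1 (variance trend), the package data.table (version 1.17.8) and R 4.3.3. Probe sets above 43.7, the median, in at least 3 samples of a fit were tested. Fits covered the 49 tubule samples, the 15 isolated cell samples or all 69; p-values were two-sided and adjusted by Benjamini-Hochberg within a contrast at 0.05. Fold changes on this scale understate those of weak probe sets. Ratios of genes within arrays were tested by permutation of samples (exact where a group had fewer than 10; 100000 resamples otherwise) in Python 3.11.15 with scipy 1.17.1, numpy 2.4.6 and pandas 2.3.3, and plots made with matplotlib 3.10.9.

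Tested on simulated data, limma recovered 87% of 100 probe sets changed 2-fold in the step VIIc.d to VIII (21945 probe sets), 93% in Sertoli against germ cells (18795) and 98% in whole testis against tubules (22651). Of all calls there, 16 of 203, 5 of 198 and 5 of 203 were false. The changed probe sets had mean levels above the median and the simulated noise was independent between samples. Recovery at weak signals and any likeness between replicates were therefore not covered. Genes, lists and comparisons were chosen with earlier results of these data known. Named were all probe sets of the 3 genes, list genes that passed the test described (at most 6 per list and comparison, by size), the markers that define a list, and the 5 genes most like each gene. Alternatives were other pseudocounts (1 and 16), no filter, quantile normalization, no variance trend, array weights, replicate numbers as a block, fewer groups in the fit, samples of higher 3′ to 5′ ratio left out, and each sample left out in turn. The 12 ratio tests other than those of stages VII and VIII against XIII-XIV and I were chosen after seeing the data, among them those of VIIa.b against VI.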

Additional observations from a re-analysis of the deposited data

Results flagged for a closer look

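Among 56 groups of 4 or 5 samples tested for a sample set apart from the rest, 4 held one, and chance gives about 1 in 20 groups. Shbg was 311.5 in replicate 4 of stage I, against 264 to 275 in the others. Clu was 3840 in replicate 1 of IX-XI, against 2875 to 3138, and 7213 in replicate 2 of Sertoli cells, against 4178 to 4687. Without that Sertoli cell sample, the difference of Clu between Sertoli cells and tubules remained past the threshold at 0.63 on the log2 scale (adjusted p = 3.75e-05, limma). Clu 1388246_at was 39.4 in replicate 1 of pachytene spermatocytes, against 3.56 to 9.06.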

How the results depend on the processing

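Across the alternatives, 1681 values of the main comparisons were held as unchanged, 20 lost their call and 0 called values changed sign. The 1681 include counts of called probe sets, which have no threshold and were held as unchanged when near the main count. The rest of the 1681 stayed on their side of the threshold. Of the called differences, that of Ptgds between early and later germ cells depended on the settings most: it was -0.37 with a pseudocount of 16 (adjusted p = 0.0701, limma), -0.65 with no filter (0.0620), -0.65 with no variance trend (0.0575) and -0.67 with replicate numbers as a block (0.0682), but -1.35 with array weights (1.94e-05). Leaving out 1 sample at a time gave -1.0 to -0.15 there, 1.22 to 1.69 for the stage span of Clu 1388246_at, 0.43 to 1.22 for its difference between Sertoli cells and tubules, and 0.22 to 0.44 for Clu in whole testis. The stage span of Clu 1388246_at was 1.52 without the 4 samples of higher 3′ to 5′ ratio (adjusted p = 0.0567, limma), where the fall of Ptgds from IX-XI to XII also missed the threshold (0.0614), and the step VIII to IX-XI of Clu 1388246_at passed without VIII replicate 1 (0.0474). The cause was not tested. The labels call the tubule samples independent, but their replicate numbers carried some likeness. With each stage's mean taken off, same-numbered samples of different stages correlated by 0.046 on average (34 of 216 pairs over 0.1). The 864 pairs of unlike number gave -0.011 on average. Of 49 samples, 35 correlated best with a sample of their own number. This is a hint of pairing from the data and not the design, and the main fits did not model it. Replicate numbers as a block changed no other call. Quantile normalization moved the median of all probe sets from 0.21 to -0.11 in early against later germ cells. Signals near the 10th percentile, as Ptgds has in germ cells, are limited by background.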
